A study of Saccharomyces cerevisiae with 25 samples.

Results

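The slow change of the yeast transcriptome late in phosphate starvation was measured by setting the 6 libraries taken 285 to 360 min after the removal of phosphate against the 6 libraries taken at 180 to 255 min. These are 12 of the 25 libraries of the series, grouped by their labelled time. The bounds of the windows were set with earlier results of these data known. All 12 came from 1 course of wild-type Saccharomyces cerevisiae BY4741. This laboratory strain is haploid, has mating type a, and lacks the genes HIS3, LEU2, MET17 and URA3. Cells were grown overnight with high phosphate, washed, put into medium lacking phosphate, and sampled every 15 min, with 1 library for each time. Both windows therefore share strain, preculture and medium, and differ in time without phosphate. The comparison asks which transcripts still moved between them.

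Budding yeast senses a shortage of phosphate through the PHO pathway, in which the inhibitor Pho81 restrains a cyclin-dependent kinase and the transcription factor Pho4 then switches on phosphate transporters, secreted phosphatases and the enzymes of polyphosphate metabolism. The factors MBF and SBF drive the genes of the G1/S transition and of DNA synthesis in late G1, and histone genes are transcribed around S phase, so cultures in which fewer cells divide carry less of these transcripts. Slowly growing yeast also carries more transcripts of the general stress response, which the factors Msn2 and Msn4 drive through the stress response element.

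Levels are log2 RPM, the deposited logarithm to base 2 of reads per 1000000 reads, and a change is the mean at 285 to 360 min minus the mean at 180 to 255 min on that scale. Genes listed in at least 5 libraries of the later and 5 of the earlier window entered the test, and a gene is said to have risen or fallen when its limma p-value, adjusted over all genes tested, was under 0.05. Where 3 values are given for a window they are the lowest, the median and the highest of the 6 libraries. Recovered depth was 506277 to 1496492 reads (median 609407.5) at 285 to 360 min and 354767 to 973000 reads (median 736328) at 180 to 255 min, and the shallowest libraries were those of 180 and 195 min. Depth, the number of genes listed and the level of the median gene did not pass a two-sided exact permutation test, with p = 0.619, 0.498 and 0.0758, or 0.619, 0.619 and 0.227 adjusted over the 3 tests. The smallest p this exact test allows is 0.00216. The times are serial samples of 1 course in place of separate cultures, so the spread that the p-values rest on is that between nearby times. RPM is a share of the library, so a gene can stand higher because other transcripts became scarcer.

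Marker genes of the labelled strain were looked up first. STE2, which a cells need to sense alpha-factor, stood at 8.94 to 9.16 log2 RPM at 285 to 360 min and at 8.98 to 9.22 log2 RPM at 180 to 255 min. None of the 4 deleted genes was listed in any of the 12 libraries. The 4 alpha-cell genes held 0.00354% to 0.00672% of the reads at 285 to 360 min and 0.00335% to 0.00832% at 180 to 255 min. The 6 a-cell genes held 0.438% to 0.536% and 0.442% to 0.526% of the reads in the later and the earlier window. Among them MFA1 rose, with a change of 0.39 (limma adjusted p = 0.0144), and the other members did not pass. The adjusted p of MFA1 was 0.0603 when each library was centred on its median gene. Of the alpha-cell genes STE3, the a-factor receptor, was listed at 4.42 to 5.14 log2 RPM in the later window and at 4.95 to 5.52 log2 RPM in the earlier one, MF(ALPHA)1 in 0 later and 2 earlier libraries, and MF(ALPHA)2 in none. Of 8 markers of diploid and sporulating cells 5 were listed in the windows, with a summed share of 0.00986% to 0.0157% of the reads at 285 to 360 min and 0.00928% to 0.0148% at 180 to 255 min, and 3 were not: IME1, the regulator of entry into meiosis, SPO11, which makes meiotic double-strand breaks, and DIT2 of spore wall synthesis. The 2 that were tested did not pass: NDT80, with a change of 0.22 ± 0.17 (SE) (adjusted p = 0.498), and DIT1, with -0.04 ± 0.19 (SE) (adjusted p = 0.924).

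Of 4555 genes tested, 349 had changed, which is 7.66%. Of these, 189 rose, which is 4.15% of the genes tested, and 160 fell, which is 3.51%. All 6 later values lay above all 6 earlier ones for 78 genes, or 1.71%, and below them for 89 genes, or 1.95%. The changes were modest, with a median size of 0.57 on the log2 scale among the genes called, and 34 of them changed by at least 1, 28 upward and 6 downward. An unadjusted limma p under 0.05 was reached by 993 genes, or 21.8%, of which 570 (12.5% of all) were upward and 423 (9.29%) downward. The median change over all genes tested was 0.05, and when each library was centred on its median gene 130 genes rose and 226 fell, so that 36.5% of the calls were upward against 54.2% without centring. Of the 349 calls 168 held in each of the 12 fits that left out 1 library, 83 of them upward and 85 downward. The count was 222 without the 330 min library, 218 without that of 345 min, 204 without that of 360 min, and 184 without those of 180 and 195 min together, a choice made after the data were seen. Genes given below with their own values kept their call in each of those 12 single-library fits unless another count is stated.

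**Figure D1:**
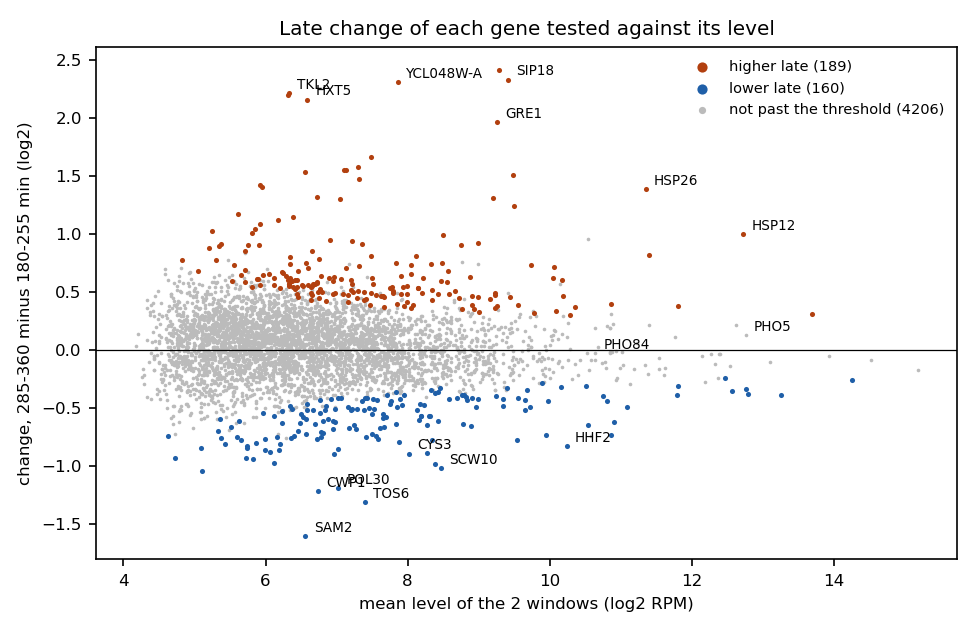
Change of each of the 4555 genes tested (vertical axis, mean at 285 to 360 min minus mean at 180 to 255 min, log2) against the mean level of the gene over the windows (horizontal axis, log2 RPM). Each point is 1 gene, red for the 189 that rose, blue for the 160 that fell and grey for the 4206 that did not pass the threshold, and the widest changes are upward, with 28 genes higher by at least 1 and 6 lower by at least 1.

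Genes that rose and genes that fell differed in how often their promoters held short motifs. The stretches shown are those of 3 genes of DNA replication and G1/S that fell and 3 stress genes that rose. They have the widest changes among genes whose call held in all 12 single-library fits and whose nearest match lay over 100 bases from the coding start. Sequences run 5′ to 3′ towards the gene, are from the RefSeq reference genome of build R64, and cover 200 bases that end 100 bases before the annotated coding start. In the first 3 the capitals mark the MluI cell cycle box (MCB), the binding letters of MBF, and in the others the stress response element (STRE), the binding letters of Msn2 and Msn4, on either strand.
POL30 (chrII:425867-426066, minus strand): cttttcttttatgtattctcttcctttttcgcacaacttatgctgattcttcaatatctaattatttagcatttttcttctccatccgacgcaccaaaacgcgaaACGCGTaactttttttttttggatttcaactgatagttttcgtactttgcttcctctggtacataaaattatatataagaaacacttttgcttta
POL12 (chrII:153711-153910, minus strand): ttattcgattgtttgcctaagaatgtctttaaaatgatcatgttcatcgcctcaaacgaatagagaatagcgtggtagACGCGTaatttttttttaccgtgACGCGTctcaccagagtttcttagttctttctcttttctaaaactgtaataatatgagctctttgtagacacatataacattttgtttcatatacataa
MCD1 (chrIV:444383-444582, plus strand): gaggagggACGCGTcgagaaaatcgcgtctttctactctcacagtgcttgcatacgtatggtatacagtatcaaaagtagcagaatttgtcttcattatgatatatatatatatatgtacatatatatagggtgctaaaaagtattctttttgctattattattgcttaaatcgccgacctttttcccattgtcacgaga
SPI1 (chrV:468070-468269, plus strand): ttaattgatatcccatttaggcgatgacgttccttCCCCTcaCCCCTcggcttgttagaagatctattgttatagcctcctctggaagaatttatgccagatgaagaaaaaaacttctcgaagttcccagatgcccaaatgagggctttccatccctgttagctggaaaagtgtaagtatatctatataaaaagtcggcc
DDR2 (chrXV:231856-232055, minus strand): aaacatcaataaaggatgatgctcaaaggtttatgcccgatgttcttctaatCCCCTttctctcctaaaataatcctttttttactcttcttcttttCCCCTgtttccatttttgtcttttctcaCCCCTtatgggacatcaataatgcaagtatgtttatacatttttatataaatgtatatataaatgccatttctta
NQM1 (chrVII:581537-581736, minus strand): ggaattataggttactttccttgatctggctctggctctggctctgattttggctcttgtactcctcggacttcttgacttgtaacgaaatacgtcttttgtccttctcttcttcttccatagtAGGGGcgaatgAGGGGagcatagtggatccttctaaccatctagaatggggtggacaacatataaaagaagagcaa

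These motifs were searched on both strands in the 300 bases before the coding start of 4474 genes tested. MCB (ACGCGT) was present in 19.2% of the 156 promoters of genes that fell and in 0.546% of the 183 of genes that rose, against 3.33% of all promoters. SCB (CNCGAAA), the box of SBF, was present in 37.2% of the promoters of genes that fell, against 15.2% of all, and its matches can overlap those of MCB. STRE (AGGGG) was present in 36.6% of the promoters of genes that rose and in 14.7% of those that fell, against 23.2% of all. The Pho4 letters CACGTG were present in 6.01% of the promoters of genes that rose and in 4.49% of those that fell, against 4.02% of all promoters and 45.0% of those of the PHO regulon. A match describes the letters of the window and is not evidence of binding.

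Among the widest rises were those of SIP18, GRE1 and an uncharacterised gene. SIP18 (chromosome XIII, 611016 to 611255), which encodes a small hydrophilic protein needed to survive drying, had 9.61, 10.45 and 12.05 log2 RPM at 285 to 360 min, against 7.54, 8.18 and 8.96 log2 RPM at 180 to 255 min. Every later library stood above every earlier one, and the highest level was that of 360 min. The change was 2.33 ± 0.43 (SE), a 5.03-fold difference with an adjusted p of 0.00961. GRE1 (chromosome XVI, 128632 to 129138), a related hydrophilin, had 9.46, 10.13 and 11.33 log2 RPM at 285 to 360 min, against 7.58, 8.35 and 8.79 log2 RPM at 180 to 255 min, again without overlap. It changed by 1.96 ± 0.34 (SE) with an adjusted p of 0.00611. The uncharacterised YCL048W-A (chromosome III, 41488 to 41727) changed by 2.31 ± 0.33 (SE) without overlap (adjusted p = 0.00179). SIP18 lost its call when the libraries of 180 and 195 min were both left out (adjusted p = 0.0585).

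Other genes with wide rises had known roles at the cell surface or in amino acid breakdown. SPI1, a cell wall protein of stationary phase, had 7.64, 7.94 and 8.98 log2 RPM at 285 to 360 min, against 5.24, 6.71 and 7.07 log2 RPM at 180 to 255 min. It changed by 1.58 ± 0.32 (SE) with an adjusted p of 0.0125. YRO2, a plasma membrane protein, had 7.58, 8.03 and 8.46 log2 RPM at 285 to 360 min, against 5.87, 6.59 and 7.02 log2 RPM at 180 to 255 min. It changed by 1.48 ± 0.17 (SE) with an adjusted p of 2.1e-05. ARO10, the decarboxylase that turns aromatic amino acids into fusel alcohols, had 6.30, 6.56 and 7.19 log2 RPM at 285 to 360 min, against 4.53, 5.16 and 5.99 log2 RPM at 180 to 255 min. It changed by 1.40 ± 0.21 (SE) with an adjusted p of 9.72e-05. In all 3 genes the windows did not overlap. The rise of RRT1 was 1.54 ± 0.20 (SE), with an adjusted p of 5.5e-05. YMR175W-A and YBR116C stood among the 12 highest changes too, but their values followed those of SIP18 and TKL2 closely in the 13 libraries from 180 min on, so reads of either gene may stand behind both names, and these 2 are uncertain.

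**Figure D2:**
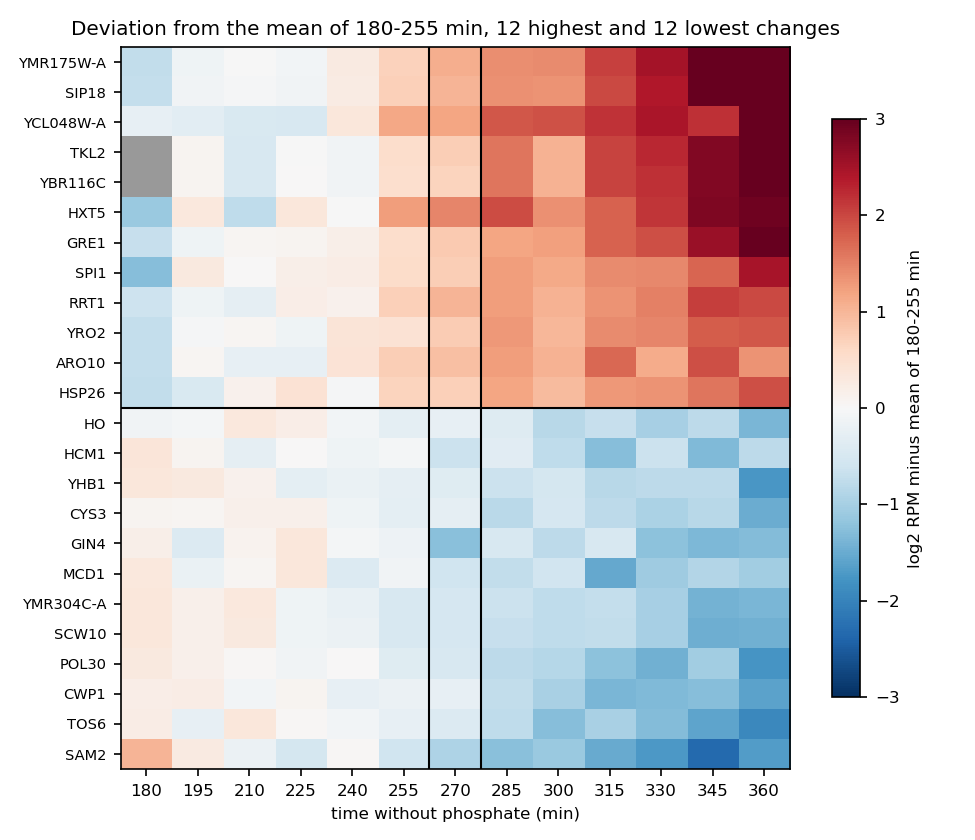
Level of the 12 genes with the highest and the 12 with the lowest changes without overlap (rows) in the 13 libraries from 180 to 360 min (columns), as log2 RPM minus the mean of 180 to 255 min. Colours run from blue at -3 to red at 3 and are clipped there, grey marks a gene not listed, the vertical lines enclose the 270 min library of neither window, and the upper rows are reddest and the lower rows bluest in the columns from 285 to 360 min.

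Genes that the environmental stress response induces rose as a large minority. Of 72 tested, 23 rose and 1, the thioredoxin gene TRX2, fell, against 4.15% and 3.51% of all genes, and the median change was 0.39 against 0.05 over all genes. The summed share of reads of this list was 5.18% to 8.70% at 285 to 360 min and 3.76% to 5.77% at 180 to 255 min. Of the 23 promoters, 17 (73.9%) held the STRE letters, against 75.0% of the 72 genes of the list, so the shares were alike in those that rose and in the whole list. Of the 23 calls 11 held in all 12 single-library fits, and that of TRX2 held in 4 of them, lost without the libraries of 180, 195, 210, 285, 300, 315, 330 or 360 min (adjusted p = 0.0539, 0.0789, 0.0784, 0.0579, 0.0644, 0.0608, 0.0601 and 0.0765). The count of 23 became 15, 14, 14 and 13 without the libraries of 210, 330, 345 and 360 min, 16 with centred libraries and 10 without those of 180 and 195 min.

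HSP26 (chromosome II, 382030 to 382674), a small heat-shock protein that holds unfolded proteins, had 11.60, 11.98 and 12.60 log2 RPM at 285 to 360 min, against 9.91, 10.71 and 11.33 log2 RPM at 180 to 255 min, with no overlap. It changed by 1.39 ± 0.25 (SE), a 2.61-fold rise with an adjusted p of 0.00834. HSP12, a small protein that stabilises the plasma membrane, had 12.74, 13.23 and 13.84 log2 RPM at 285 to 360 min, against 11.69, 12.25 and 12.78 log2 RPM at 180 to 255 min, with an overlap between the windows. It changed by 1.00 ± 0.21 (SE) (adjusted p = 0.0162). Without the libraries of 180 and 195 min the adjusted p of HSP12 was 0.0713. DDR2, a multistress gene, had 9.68, 10.20 and 10.89 log2 RPM at 285 to 360 min, against 7.94, 8.66 and 9.70 log2 RPM at 180 to 255 min. It changed by 1.51 ± 0.30 (SE) with an overlap (adjusted p = 0.0125), and its adjusted p without the libraries of 180 and 195 min was 0.0631. MOH1 changed by 1.32 ± 0.20 (SE) with an adjusted p of 0.00017, and FMP16, which encodes a mitochondrial protein, by 1.24 ± 0.26 (SE) with an adjusted p of 0.0146. Neither of these 2 genes had overlapping windows.

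Of 27 heat-shock chaperones 8 rose, or 29.6% against 4.15% of all genes, and 0 fell, with a median change of 0.24. An unadjusted limma p under 0.05 was reached by 13 of them, 12 upward, against 21.8% and 12.5% of all genes. STI1, a partner of the chaperone Hsp90, had 8.15, 8.57 and 8.70 log2 RPM at 285 to 360 min, against 7.48, 7.91 and 8.29 log2 RPM at 180 to 255 min. It changed by 0.62 ± 0.13 (SE) with an overlap (adjusted p = 0.00265). It held together with HSP26 and HSP12 in all 12 single-library fits. The other 5 did not, and the count of 8 became 4, 5, 4, 5 and 3 without the libraries of 195, 285, 330, 345 and 360 min, and 3 without those of 180 and 195 min.

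Genes of sugar uptake, and genes for minor isoforms in the pentose phosphate pathway, were among those that rose. HXT5 (chromosome VIII, 294669 to 296447), a hexose transporter made by slowly growing cells, had 6.88, 7.56 and 8.43 log2 RPM at 285 to 360 min, against 4.39, 5.65 and 6.77 log2 RPM at 180 to 255 min. The windows did not overlap and the change was 2.16 ± 0.41 (SE), 4.47-fold, with an adjusted p of 0.0105. HXT7, a high-affinity transporter, had 5.74, 6.56 and 6.91 log2 RPM at 285 to 360 min, against 4.72, 5.36 and 5.77 log2 RPM at 180 to 255 min, where 5 of the 6 earlier libraries listed it. It changed by 1.09 ± 0.21 (SE) with an overlap (adjusted p = 0.00155), and its reads cannot be told from those of the nearly identical HXT6. Of 8 transporters tested 3 rose, or 37.5% against 4.15% of all genes, and 0 fell, and of 23 on the list 7 were listed in no library of either window. The 3 were HXT5, HXT7 and HXT3. HXT3 changed by 0.36 (adjusted p = 0.039), and its call held in 4 of the 12 single-library fits.

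The minor transketolase TKL2 (chromosome II, 474392 to 476437) had 6.27, 7.37 and 8.79 log2 RPM at 285 to 360 min, against 4.74, 5.22 and 5.74 log2 RPM at 180 to 255 min, where the 180 min library did not list it. The change was 2.21 ± 0.41 (SE) without overlap, 4.64-fold, with an adjusted p of 0.00975. NQM1, the minor transaldolase, had 5.33, 6.68 and 7.86 log2 RPM at 285 to 360 min, against 4.90, 5.18 and 5.56 log2 RPM at 180 to 255 min. It changed by 1.42 ± 0.31 (SE) with an overlap (adjusted p = 0.0125), with an adjusted p of 0.097 without the libraries of 180 and 195 min. The pair of 6-phosphogluconate dehydrogenases went opposite ways. GND2, the minor isoform, rose by 0.63 ± 0.15 (SE) (adjusted p = 0.0122). GND1, the major isoform, had 7.13, 7.39 and 7.57 log2 RPM at 285 to 360 min, against 7.83, 7.96 and 8.05 log2 RPM at 180 to 255 min, without overlap. It changed by -0.59 ± 0.11 (SE) (adjusted p = 0.00101). Of 12 genes of the pathway 3 rose and 1 fell, against 4.15% and 3.51% of all genes, and the median change was -0.07.

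Among genes of the respiratory chain and ATP synthase 12 of 46 rose and 1 fell, or 26.1% and 2.17% against 4.15% and 3.51% of all genes, with a median change of 0.30. AAC1, a minor ADP/ATP carrier of the inner mitochondrial membrane, had 5.92, 6.39 and 6.57 log2 RPM at 285 to 360 min, against 4.39, 5.47 and 5.63 log2 RPM at 180 to 255 min. It changed by 1.01 ± 0.20 (SE) (adjusted p = 0.00149), without overlap, and its lowest earlier value was the floor of the 180 min library. QCR2, a core subunit of complex III, had 6.86, 6.90 and 7.15 log2 RPM at 285 to 360 min, against 5.77, 5.98 and 6.88 log2 RPM at 180 to 255 min. It changed by 0.75 ± 0.17 (SE) with an overlap (adjusted p = 0.00486). CYC1, iso-1-cytochrome c, went the other way without overlap, with 5.49, 6.12 and 6.25 log2 RPM at 285 to 360 min, against 6.52, 6.70 and 7.28 log2 RPM at 180 to 255 min. Its change was -0.74 ± 0.16 (SE) (adjusted p = 0.00363). The other 10 rises were lost in 1 or more single-library fits. The count of 12 became 4, 7, 4, 7, 6, 4, 5 and 2 without the libraries of 180, 195, 210, 225, 315, 330, 345 and 360 min, 3 with centred libraries, and 4 without those of 180 and 195 min.

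Autophagy and the uptake of nitrogen sources each had a few risen genes. Of 25 autophagy genes 5 rose, against 4.15% of all genes, and 0 fell. In all 5 the windows did not overlap, as in 66 of all 189 genes that rose. Of the 25 tested, 5 had all later values above all earlier ones, against 1.71% of all genes. Of the 5 calls 4 held in all 12 single-library fits. ATG20, a sorting nexin of selective autophagy, changed by 1.02 ± 0.23 (SE) (adjusted p = 0.00515). YOR152C, which the reference names ATG40, a receptor for autophagy of the endoplasmic reticulum, changed by 0.95 ± 0.14 (SE) (adjusted p = 5.5e-05), and ATG26, a sterol glucosyltransferase, by 0.71 ± 0.15 (SE) (adjusted p = 0.00363). YOR152C had 7.19, 7.31 and 7.69 log2 RPM at 285 to 360 min, against 6.02, 6.48 and 6.77 log2 RPM at 180 to 255 min. Of 29 genes under nitrogen catabolite repression 4 rose, or 13.8%, and 0 fell, and the count was 1 without the libraries of 180 and 195 min. PUT4, the proline permease, had 5.97, 6.37 and 6.91 log2 RPM at 285 to 360 min, against 4.39, 5.48 and 5.75 log2 RPM at 180 to 255 min, where 5 of the 6 earlier libraries listed it. It changed by 1.04 ± 0.22 (SE) without overlap (adjusted p = 0.00247).

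Amino acid synthesis under Gcn4 had 4 risen and 4 fallen genes of 60, or 6.67% each, near the 4.15% and 3.51% of all genes, with a median change of 0.01. The genes described are therefore single genes and not a result on the pathway. CPA1 (chromosome XV, 882899 to 884134), the small subunit of the carbamoyl phosphate synthase of arginine synthesis, had 9.15, 9.43 and 9.91 log2 RPM at 285 to 360 min, against 8.19, 8.53 and 8.83 log2 RPM at 180 to 255 min. It did not overlap and changed by 0.92 ± 0.13 (SE) (adjusted p = 3.53e-05). HOM3, aspartate kinase, rose by 0.91 ± 0.20 (SE) (adjusted p = 0.00476), and GCN4, the regulator itself, by 0.47 ± 0.09 (SE) (adjusted p = 0.00149). LEU1 of leucine synthesis had 8.61, 8.70 and 8.83 log2 RPM at 285 to 360 min, against 9.05, 9.20 and 9.35 log2 RPM at 180 to 255 min. It changed by -0.49 ± 0.10 (SE) without overlap (adjusted p = 0.00149). BAT1, a branched-chain aminotransferase, changed by -0.51 ± 0.13 (SE) (adjusted p = 0.0125).

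Of 37 genes of G2/M and M/G1, 6 rose and 2 fell, or 16.2% and 5.41% against 4.15% and 3.51% of all genes tested, with a median change of -0.04. Of the 6, DSE2, a glucanase-like protein that parts the daughter from the mother, had 8.77, 9.27 and 9.45 log2 RPM at 285 to 360 min, against 7.90, 8.29 and 8.74 log2 RPM at 180 to 255 min, without overlap. It changed by 0.91 ± 0.14 (SE) (adjusted p = 0.000103). SCW11, another glucanase-like protein of the cell wall, had 7.47, 7.71 and 7.80 log2 RPM at 285 to 360 min, against 6.64, 6.86 and 7.35 log2 RPM at 180 to 255 min. It changed by 0.73 ± 0.13 (SE) without overlap (adjusted p = 0.000474). DSE1 changed by 0.85 ± 0.19 (SE) (adjusted p = 0.00634), DSE3 by 0.63 ± 0.13 (SE) (adjusted p = 0.00338) and CTS1, the chitinase of cell separation, by 0.60 ± 0.11 (SE) (adjusted p = 0.000817). The 2 genes that fell were HO, the endonuclease of mating type switching, with a change of -0.85 ± 0.15 (SE) (adjusted p = 0.000413), and ALK1, a haspin-like kinase, with -0.58 ± 0.13 (SE) (adjusted p = 0.00536).

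**Figure D3:**
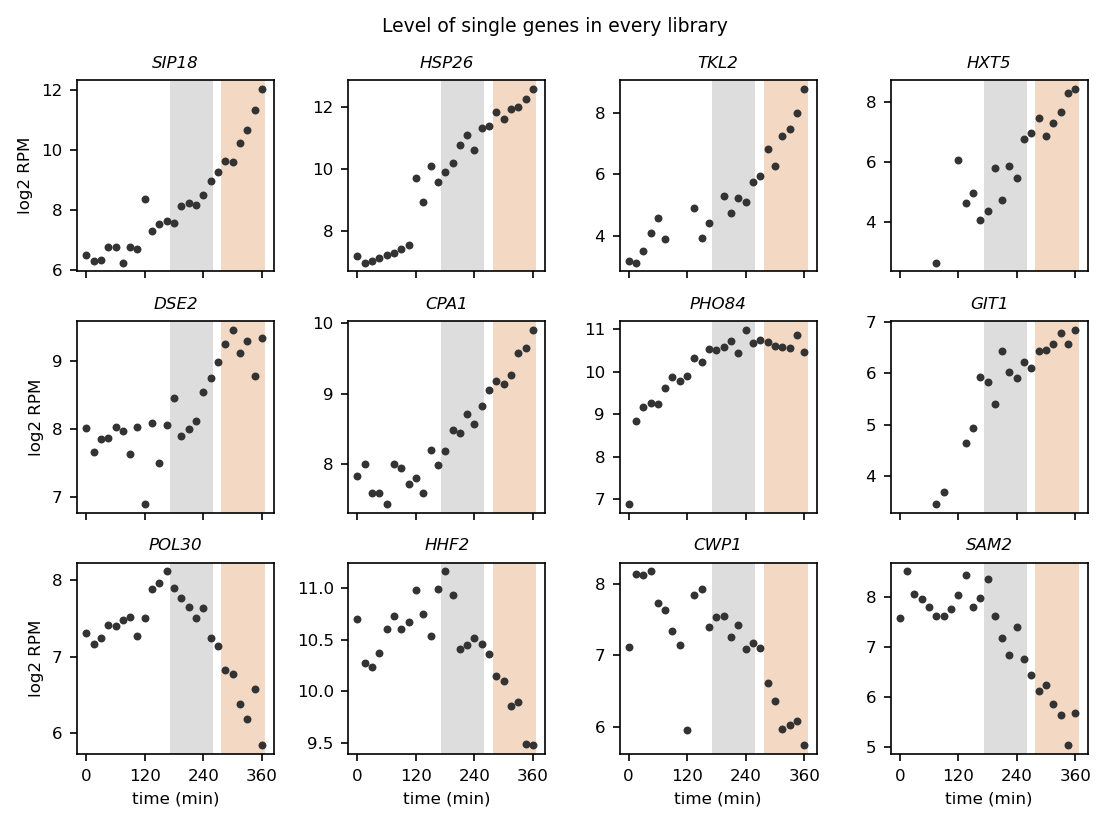
Level of 12 genes (1 panel each, vertical axis in log2 RPM, scales differ between panels) in every library that listed them against time (horizontal axis, min), with 285 to 360 min shaded orange and 180 to 255 min shaded grey. SIP18, HSP26, TKL2, HXT5, DSE2 and CPA1 stand higher in the orange band, POL30, HHF2, CWP1 and SAM2 stand lower, PHO84 lies level between 10.44 and 10.98 log2 RPM over both bands, and GIT1 is higher by 0.64.

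Genes of DNA replication and the G1/S transition fell in part, and none passed the test upward. Of 38 tested, 13 fell and 0 rose, against 3.51% and 4.15% of all genes tested, and 36 of the 38 changes were negative, with a median of -0.40. An unadjusted limma p under 0.05 was reached by 20, of which 1 was upward, against 21.8% and 12.5% of all genes. The count of fallen genes was 10 to 14 in the single-library fits, 16 with centred libraries and 11 without those of 180 and 195 min. Of the 13 promoters 9 (69.2%) held the MCB letters, against 19 of all 38 genes of the list and 3.33% of all promoters. In bulk RNA fewer cells in a phase of the cycle and less RNA per cell cannot be told apart.

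POL30 (chromosome II, 424990 to 425766), the sliding clamp PCNA of DNA replication, had 5.84, 6.48 and 6.82 log2 RPM at 285 to 360 min, against 7.25, 7.65 and 7.90 log2 RPM at 180 to 255 min. All later values lay below all earlier ones, and the lowest, 5.84, was that of 360 min. The change was -1.19 ± 0.15 (SE), a 2.28-fold lower level with an adjusted p of 2.1e-05. POL12 (chromosome II, 151493 to 153610), a subunit of the DNA polymerase that primes new strands, had 4.33, 4.41 and 5.43 log2 RPM at 285 to 360 min, against 5.17, 5.61 and 6.24 log2 RPM at 180 to 255 min. It changed by -1.04 ± 0.22 (SE) (adjusted p = 0.00327), with an overlap. MCD1 (chromosome IV, 444683 to 446383), the cohesin subunit cleaved at anaphase, had 5.08, 5.65 and 6.03 log2 RPM at 285 to 360 min, against 6.20, 6.60 and 6.94 log2 RPM at 180 to 255 min. It changed by -0.97 ± 0.18 (SE) without overlap (adjusted p = 0.000625).

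Genes of precursor supply and strand handling fell as well. RNR1, the large subunit of ribonucleotide reductase, had 6.94, 7.48 and 7.87 log2 RPM at 285 to 360 min, against 8.03, 8.30 and 8.49 log2 RPM at 180 to 255 min. It changed by -0.80 ± 0.13 (SE) (adjusted p = 0.000203). CDC21, thymidylate synthase, changed by -0.80 ± 0.18 (SE) (adjusted p = 0.00489). RFA3 of replication protein A had 6.75, 6.99 and 7.54 log2 RPM at 285 to 360 min, against 7.58, 7.82 and 7.94 log2 RPM at 180 to 255 min. It changed by -0.75 ± 0.13 (SE) (adjusted p = 0.000421), and its partner RFA1 changed by -0.75 ± 0.16 (SE) (adjusted p = 0.00363). RAD27, the flap endonuclease of Okazaki fragments, changed by -0.74 ± 0.12 (SE) (adjusted p = 0.000298). In RNR1, CDC21, RFA3 and RAD27 the windows did not overlap, and in RFA1 they did. HCM1, a forkhead factor of S phase outside the list, changed by -0.86 ± 0.18 (SE) (adjusted p = 0.00254), and GIN4, a kinase of the bud neck, by -0.94 ± 0.19 (SE) (adjusted p = 0.00201).

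Of 11 histone genes 9 fell and 0 rose, which is 81.8% against 3.51% of all genes and the largest share among the lists with at least 10 genes tested, and the median change was -0.62. Their summed share of reads was 0.736% to 1.03% at 285 to 360 min and 1.21% to 1.63% at 180 to 255 min. HHF2 (chromosome XIV, 576727 to 577038), an H4 gene, had 9.47, 9.87 and 10.14 log2 RPM at 285 to 360 min, against 10.40, 10.49 and 11.16 log2 RPM at 180 to 255 min. It changed by -0.83 ± 0.15 (SE) (adjusted p = 0.00149). HHT2, its divergent H3 neighbour, had 10.20, 10.53 and 10.84 log2 RPM at 285 to 360 min, against 11.06, 11.26 and 11.33 log2 RPM at 180 to 255 min. It changed by -0.73 ± 0.10 (SE) (adjusted p = 2.94e-05). HTB2, an H2B gene, had 8.64, 9.27 and 9.46 log2 RPM at 285 to 360 min, against 9.74, 9.88 and 10.16 log2 RPM at 180 to 255 min. It changed by -0.77 ± 0.12 (SE) (adjusted p = 9.05e-05). In these 3 genes the windows did not overlap.

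The remaining copies had changes of several sizes. HTA2 and HTA1, the H2A genes, changed by -0.73 and -0.62 (adjusted p = 0.000112 and 0.000421), the linker histone gene HHO1 by -0.68 (adjusted p = 0.000908) and the H4 gene HHF1 by -0.49 (adjusted p = 0.000732). The H3 gene HHT1 and the H2B gene HTB1 did not pass, with changes of -0.16 ± 0.11 (SE) (adjusted p = 0.407) and -0.36 ± 0.12 (SE) (adjusted p = 0.055). No difference between copies was tested, and since the treatment of reads that map to near-identical genes is not given in the sources used here, values of single copies are uncertain. The count was 8 or 9 in every single-library fit, 10 with centred libraries and 7 without those of 180 and 195 min.

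**Figure D4:**
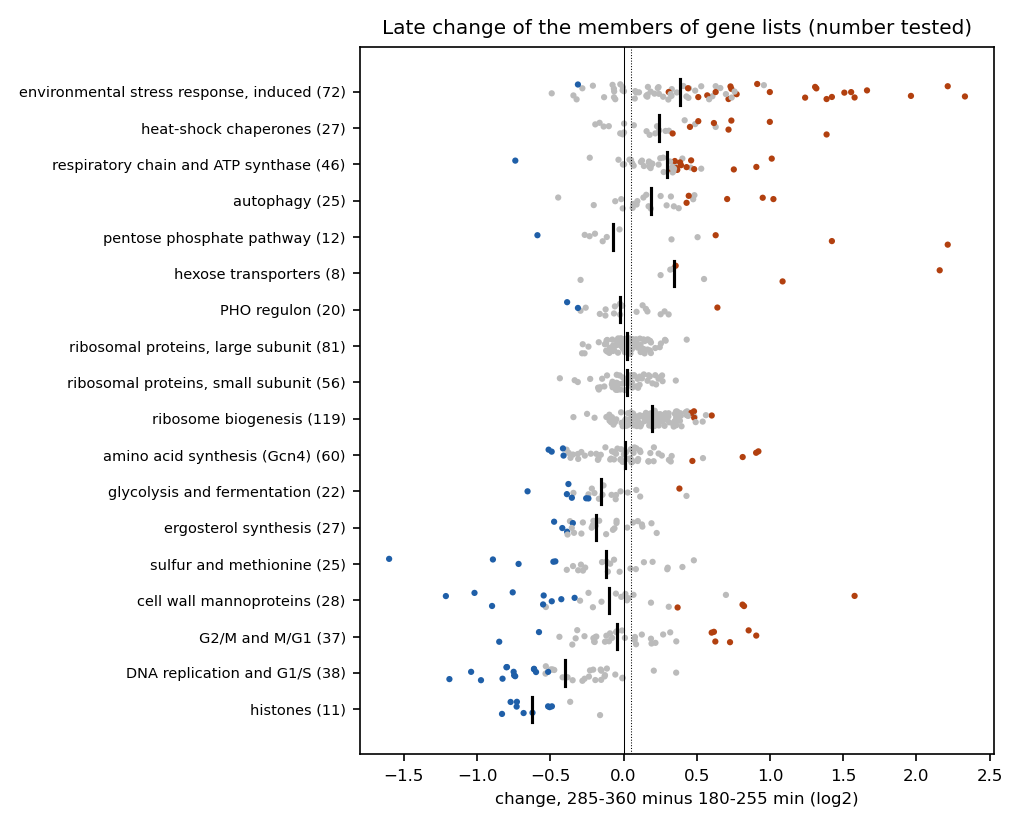
Change of each member of 18 gene lists (horizontal axis, mean at 285 to 360 min minus mean at 180 to 255 min, log2), with the number of members tested in brackets. Points are genes, red where they rose, blue where they fell and grey where they did not pass the threshold, the bar is the median of the list and the dotted line the median of all genes, 0.05. The stress list lies furthest right of the lists shown with a median of 0.39 and the histones furthest left with -0.62.

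Cell wall genes fell in part and rose in part. Of 28 tested, 9 fell and 4 rose, or 32.1% and 14.3% against 3.51% and 4.15% of all genes, with a median change of -0.10. CWP1 (chromosome XI, 261132 to 261851), a mannoprotein linked to glucan, had 5.74, 6.05 and 6.61 log2 RPM at 285 to 360 min, against 7.09, 7.34 and 7.56 log2 RPM at 180 to 255 min. It changed by -1.21 ± 0.15 (SE), a 2.32-fold lower level without overlap (adjusted p = 2.1e-05). TOS6, a cell wall protein outside the list, had 6.11, 6.76 and 7.30 log2 RPM at 285 to 360 min, against 7.80, 8.03 and 8.39 log2 RPM at 180 to 255 min. It changed by -1.31 ± 0.16 (SE) without overlap (adjusted p = 2.1e-05). SCW10, a glucanase-like protein, had 7.51, 8.09 and 8.29 log2 RPM at 285 to 360 min, against 8.49, 8.99 and 9.32 log2 RPM at 180 to 255 min. It changed by -1.02 ± 0.16 (SE) without overlap (adjusted p = 0.000411), and the values of YMR304C-A followed it closely. UTR2, a transglycosylase that joins chitin to glucan, changed by -0.90 ± 0.17 (SE) (adjusted p = 0.00144). Beside SPI1, the mannoprotein genes that rose were HPF1, by 0.82 ± 0.12 (SE) (adjusted p = 0.000284), TIP1, by 0.81 ± 0.12 (SE) (adjusted p = 6.04e-05), and SED1. The call of SED1 was lost in 5 of the 12 single-library fits (without 180, 195, 210, 285 or 330 min, adjusted p = 0.0753, 0.0649, 0.0534, 0.0668 and 0.0504). The count of 9 was 5 without the 345 min library and 5 without that of 360 min.

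The widest fall of all was that of SAM2 (chromosome IV, 1453310 to 1454464), an S-adenosylmethionine synthetase. It had 5.03, 5.77 and 6.24 log2 RPM at 285 to 360 min, against 6.75, 7.29 and 8.37 log2 RPM at 180 to 255 min. The windows did not overlap, and the change was -1.60 ± 0.26 (SE), a 3.03-fold lower level with an adjusted p of 0.00144. SAM1, the near-identical second synthetase, changed by -0.72 ± 0.16 (SE) (adjusted p = 0.00634) with an overlap, and reads shared by this pair could move a value from either gene to the other. CYS3, which makes cysteine from cystathionine, had 6.98, 7.65 and 7.96 log2 RPM at 285 to 360 min, against 8.17, 8.53 and 8.61 log2 RPM at 180 to 255 min. It changed by -0.89 ± 0.13 (SE) without overlap (adjusted p = 5.5e-05). SAH1, which clears S-adenosylhomocysteine, changed by -0.47 ± 0.12 (SE) (adjusted p = 0.012). Of 25 sulfur and methionine genes tested 5 fell, against 3.51% of all genes, and 0 rose, and 8 had an unadjusted limma p under 0.05, 2 of them upward, against 21.8% of all genes.

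Glycolytic genes fell by small amounts from high levels. Of 22 genes of glycolysis and fermentation 6 fell and 1 rose, or 27.3% and 4.55% against 3.51% and 4.15% of all genes, with a median change of -0.16, and the summed share of reads was 13.4% to 15.0% at 285 to 360 min and 15.0% to 16.3% at 180 to 255 min. HXK2, the main hexokinase of fermenting cells, had 8.23, 8.66 and 8.82 log2 RPM at 285 to 360 min, against 8.93, 9.22 and 9.50 log2 RPM at 180 to 255 min. It changed by -0.66 ± 0.11 (SE) (adjusted p = 0.000411). PDC1, the main pyruvate decarboxylase, had 12.89, 13.06 and 13.25 log2 RPM at 285 to 360 min, against 13.34, 13.44 and 13.56 log2 RPM at 180 to 255 min. It changed by -0.39 ± 0.07 (SE) (adjusted p = 0.00081). GPM1, phosphoglycerate mutase, changed by -0.38 ± 0.07 (SE) (adjusted p = 0.000933) and ENO2, an enolase, by -0.26 ± 0.07 (SE) (adjusted p = 0.0134). None of these 4 genes had overlapping windows. ENO2 and TDH1 have close copies with which they may share reads. TDH1, the glyceraldehyde-3-phosphate dehydrogenase isoform of slow growth, rose by 0.38 ± 0.09 (SE) (adjusted p = 0.0075), and its adjusted p without the libraries of 180 and 195 min was 0.0696. Ergosterol synthesis had 4 of 27 genes lower, or 14.8% against 3.51% of all genes, and 0 higher, and only ERG27, a 3-keto reductase, kept its call in all 12 single-library fits, with a change of -0.47 ± 0.11 (SE) (adjusted p = 0.00935). The ergosterol count was 2, 1, 8, 2, 1, 1 and 2 without the libraries of 180, 210, 255, 315, 330, 345 and 360 min, and 8 with centred libraries.

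The PHO regulon itself had a median change near 0. Of its 22 genes 20 were tested, 1 rose and 2 fell, which is 5.0% and 10.0% against 4.15% and 3.51% of all genes, and the median change was -0.02. An unadjusted limma p under 0.05 was reached by 8 of the 20, 4 of them upward, against 21.8% of all genes tested. The summed share of reads was 2.51% to 3.0% at 285 to 360 min and 2.78% to 3.19% at 180 to 255 min. The count of risen genes was 2 without the 240 min library and 0 without those of 180 and 195 min. That of fallen genes was 1 without the library of 180, 330, 345 or 360 min, 4 without that of 255 min and 4 with centred libraries. PHM7 was listed in 3 later libraries and 1 earlier one, and CTF19 in none.

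Among the transporters, PHO84 (chromosome XIII, 24037 to 25800), the high-affinity phosphate carrier, had 10.47, 10.59 and 10.86 log2 RPM at 285 to 360 min, against 10.44, 10.62 and 10.98 log2 RPM at 180 to 255 min. Its change was -0.02 ± 0.10 (SE) (adjusted p = 0.915). PHO89, the sodium-coupled carrier, had 9.61, 9.74 and 10.01 log2 RPM at 285 to 360 min, against 9.52, 9.66 and 9.94 log2 RPM at 180 to 255 min. Its change was 0.09 ± 0.10 (SE) (adjusted p = 0.66). GIT1 (chromosome III, 297049 to 298605), the permease for glycerophosphoinositol, had 6.43, 6.56 and 6.84 log2 RPM at 285 to 360 min, against 5.40, 5.96 and 6.42 log2 RPM at 180 to 255 min. It was the 1 gene of the regulon that rose, by 0.64 ± 0.16 (SE) without overlap (adjusted p = 0.014), and its adjusted p was 0.0927 without the libraries of 180 and 195 min. SPL2, which lowers uptake by the low-affinity carriers, had 9.26 to 9.57 log2 RPM at 285 to 360 min, against 9.21 to 9.78 log2 RPM at 180 to 255 min, with a change of -0.16 ± 0.10 (SE) (adjusted p = 0.384).

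Among the phosphatases, PHO5, the main secreted acid phosphatase, had 12.66, 12.84 and 12.93 log2 RPM at 285 to 360 min, against 12.48, 12.64 and 13.05 log2 RPM at 180 to 255 min. Its change was 0.13 ± 0.09 (SE) (adjusted p = 0.404). PHO12, a secreted phosphatase nearly identical to PHO11, had 11.46, 11.65 and 11.82 log2 RPM at 285 to 360 min, against 11.76, 11.94 and 12.14 log2 RPM at 180 to 255 min. Its change was -0.31 ± 0.09 (SE) (adjusted p = 0.0224). Its call was lost without the libraries of 180, 330, 345 or 360 min (adjusted p = 0.0601, 0.0692, 0.0574 and 0.0704), and PHO11 had a change of -0.29 ± 0.10 (SE) (adjusted p = 0.0773), with reads of this pair open to exchange. PHO8, the vacuolar alkaline phosphatase, had 7.89 to 8.25 log2 RPM at 285 to 360 min, against 7.27 to 8.32 log2 RPM at 180 to 255 min, and a change of 0.31 ± 0.13 (SE) (adjusted p = 0.169). PHM8, a nucleotide phosphatase, had 9.57 to 9.98 log2 RPM at 285 to 360 min, against 9.43 to 9.67 log2 RPM at 180 to 255 min, and a change of 0.16 ± 0.10 (SE) (adjusted p = 0.325).

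Of the polyphosphate polymerase complex, VTC1 (chromosome V, 302806 to 303195) had 11.39, 11.62 and 11.73 log2 RPM at 285 to 360 min, against 11.80, 11.96 and 12.23 log2 RPM at 180 to 255 min. It was 1.31-fold lower, without overlap (change -0.39 ± 0.09 (SE), adjusted p = 0.00479). The subunits VTC2, VTC3 and VTC4 had changes of 0.15 ± 0.09 (SE), -0.26 ± 0.09 (SE) and -0.12 ± 0.10 (SE) (adjusted p = 0.36, 0.0732 and 0.52). The inhibitor gene PHO81 had 8.50 to 8.87 log2 RPM at 285 to 360 min, against 8.09 to 8.60 log2 RPM at 180 to 255 min, with a change of 0.28 ± 0.11 (SE) (adjusted p = 0.117). KCS1, an inositol hexakisphosphate kinase of the signalling path, had a change of 0.25 ± 0.11 (SE) (adjusted p = 0.151). A p above the threshold does not show that these genes stayed the same.

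Ribosomal protein genes varied from library to library without a call. Of 81 genes of the large subunit and 56 of the small subunit 0 passed the limma test, and an unadjusted p under 0.05 was reached by 2 in each list, all downward. Their summed share of reads was 3.92% to 6.19% at 285 to 360 min and 4.0% to 7.22% at 180 to 255 min. The median of the large-subunit genes, set against each gene's own mean at 180 to 255 min, ran from -0.40 to 0.23 over the later libraries and from -0.42 to 0.42 over the earlier ones, and the later range lay inside the earlier one. When the libraries of 180 and 195 min were left out, 2 genes of the large subunit passed, both upward. Ribosome biogenesis had 4 of 119 genes higher and 0 lower, 3.36% against 4.15% of all genes, with a median change of 0.20. An unadjusted p under 0.05 was reached by 23 of the 119, all upward. Over all genes tested 21.8% reached such a p, and 12.5% did so upward. NOG2 and NOP15, which act on the large subunit precursor, were 2 of the 4, with changes of 0.48 ± 0.12 (SE) and 0.48 ± 0.12 (SE) (adjusted p = 0.0142 and 0.00975). The count of 4 was 2, 7 and 2 without the libraries of 195, 210 and 345 min, and of the 71 mitochondrial ribosomal proteins 0 passed the limma test, with 7 at an unadjusted p under 0.05.

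Several lists of metabolism held few or no calls. Of 13 glycogen genes 1 fell, or 7.69% against 3.51% of all genes. Of 7 trehalose genes 1 rose, or 14.3% against 4.15% of all genes, a call lost without the 360 min library. Of 20 TCA cycle genes 2 rose, or 10.0% against 4.15% of all genes. Of these, 1 was called without the library of 315 or 345 min and 0 without that of 180, 195, 210, 225, 285, 300, 330 or 360 min. Of 30 genes of the peroxisome and fatty acid oxidation and of 23 genes of copper and iron uptake 0 passed the limma test. An unadjusted p under 0.05 was reached by 2 and 6 of them, against 21.8% of all genes. PGM1, a minor phosphoglucomutase, was the glycogen gene that fell, with a change of -0.84 ± 0.21 (SE) (adjusted p = 0.012). HEF3, a copy of elongation factor 3, had 6.30, 6.94 and 7.58 log2 RPM at 285 to 360 min, against 5.40, 5.87 and 6.17 log2 RPM at 180 to 255 min. It changed by 1.15 ± 0.19 (SE) without overlap (adjusted p = 0.000411). HYP2, the translation factor eIF5A, had 10.29, 10.62 and 10.67 log2 RPM at 285 to 360 min, against 10.78, 10.96 and 11.07 log2 RPM at 180 to 255 min. It changed by -0.39 ± 0.09 (SE), also without overlap (adjusted p = 0.00547). TUB1, an alpha-tubulin gene on the housekeeping list, had 7.78, 8.18 and 8.44 log2 RPM at 285 to 360 min, against 8.57, 8.75 and 8.89 log2 RPM at 180 to 255 min. It changed by -0.61 ± 0.12 (SE) without overlap (adjusted p = 0.00155).

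The medians of the lists over the whole course set the later window beside the times before it. Against each gene's mean at 180 to 255 min, the stress list stood at -2.23 in high phosphate, at -1.49 to -1.11 from 15 to 105 min, at -0.37 to 0.44 from 180 to 255 min and at -0.02 to 0.69 from 285 to 360 min. The histone list stood at -0.50 in high phosphate, at -0.94 to -0.37 from 15 to 105 min, at -0.18 to 0.23 from 180 to 255 min and at -0.82 to -0.39 from 285 to 360 min. Its highest values of the course were 0.19, 0.23 and 0.19 at 165, 180 and 195 min. The list of DNA replication and G1/S stood at -0.35, at -0.62 to -0.29, at -0.08 to 0.14 and at -0.74 to -0.20 at those same times. The PHO regulon stood at -2.92 in high phosphate, at -2.08 to -0.83 from 15 to 105 min, at -0.04 to 0.06 from 180 to 255 min and at -0.09 to 0.06 from 285 to 360 min. All of these medians share the libraries of 180 to 255 min as their zero. Over 3990 of the genes tested the same median was -0.36 in high phosphate and -0.31 to -0.26 from 15 to 105 min. It was -0.03 to 0.07 from 180 to 255 min and 0.01 to 0.08 from 285 to 360 min. The early offsets of the lists are to be read beside that of all genes.

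**Figure D5:**
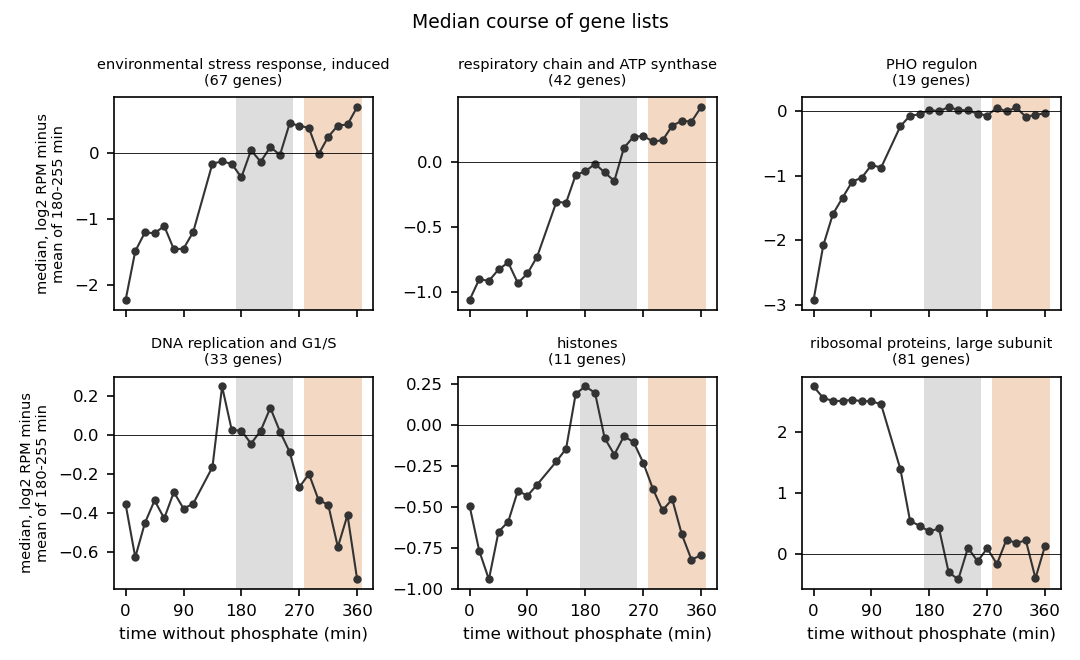
Median over the members listed in all 24 libraries used (the 120 min library is left out) of 6 gene lists against time without phosphate (min), as log2 RPM minus each gene's mean at 180 to 255 min, with 285 to 360 min shaded orange and 180 to 255 min shaded grey. The stress list reaches 0.69 in the orange band, the histones go down to -0.82 there, and the PHO regulon stays between -0.09 and 0.06.

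The library of 270 min, which belongs to neither window, lay between them. Of the 189 genes that rose, 176 had a 270 min level above their mean at 180 to 255 min and 104 lay nearer to the mean at 285 to 360 min. Of the 159 genes that fell and were listed at 270 min, 147 lay below their mean at 180 to 255 min and 75 lay nearer to the later mean. The median position between the earlier mean, taken as 0%, and the later mean, taken as 100%, was 55.0% for the genes that rose and 47.8% for those that fell. SIP18 had 9.27 log2 RPM at 270 min, POL30 7.14 log2 RPM and SAM2 6.44 log2 RPM, each between its 2 window medians.

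Finally, 2 genes were listed in all 6 later libraries and in at most 1 earlier one, and no gene showed the opposite. FMP45, which encodes a membrane protein of the cell cortex, had 4.36, 4.88 and 5.74 log2 RPM in the later libraries and was listed in 1 earlier library. That library was the one of 255 min, where FMP45 had 5.17 log2 RPM, above its later median. At 270 min it had 5.32 log2 RPM. POT1, the thiolase of peroxisomal fatty acid oxidation, had 4.21, 4.96 and 5.15 log2 RPM and was likewise listed in 1 earlier library. Both lie near the floor of 10 reads, so absence from a library means a level anywhere below it.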

How the data were processed

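Per the labels' protocols the 25 yeast RNA libraries were read on an Illumina HiSeq, and 12 of them enter the comparison. Reads were aligned with Bowtie to build R64, per the submitters' processing notes. Counter, strand and the rule for reads with several matches were not given in the sources used here. Near-identical and overlapping genes are therefore uncertain. The deposited table holds log2 values made by the authors. On the linear scale each column adds up to 1000000, which makes them log2 RPM. They are not ratios to the first time, of which the design text speaks. A gene has no value below a floor. Of the values below 400 RPM 96.27% were whole numbers of reads within 0.01 if that floor is 10 reads, which gave the depths stated, and counting alone gives an SD of 0.46 log2 units there. Such limits cover counting error only. Of 6701 lines 51 held no name and no value, and of the 6650 named genes 5963 matched the R64 reference, from which coordinates were taken.

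Genes with at least 5 values in each window, 4555 in number, were fitted with limma 3.58.1 in R 4.3.3 (lmFit on the window means, eBayes with trend and robust, no pseudocount, two-sided). P-values were adjusted by the Benjamini-Hochberg method across every gene tested, with a threshold of 0.05, and 494 genes entered with a missing value that the fit drops. No count test was run because the unit is log2. The fit was tested on simulated data. Windows, members and the 49 gene lists were chosen with earlier results of these data known, and lists were counted and not tested. Named genes were the 12 highest and 12 lowest changes without overlap, up to 3 members called in each direction on each list, the PHO regulon, genes of 1 window and the strain markers. Further called members of lists, and the histone genes HTB1 and HHT1, were named after their values were seen. Some genes that meet these rules are not reported here. Alternatives changed the scaling, filter, pseudocount, variance model, covariates, samples and windows, and left out each library.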

Additional observations from a re-analysis of the deposited data

Results flagged for a closer look

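In 15 of 362 groups of 5 or 6 libraries, 1 library stood further from the others than Dixon's 95% value allows. Chance flags about 1 in 20 groups. Of the later libraries, the 285 min library was high for POL12 (5.43 log2 RPM), that of 300 min was low for COX12 (7.865 log2 RPM), and that of 315 min was low for CYC1 (5.491 log2 RPM) and high for SAH1 (7.706 log2 RPM). The 345 min library was low for MET6 (8.647 log2 RPM) and had the highest median gene (6.731 log2 RPM). The 360 min library was high for COX7 (7.827 log2 RPM) and low for YHB1 (6.959 log2 RPM), a nitric oxide dioxygenase that was 1.85-fold lower at 285 to 360 min than at 180 to 255 min. Of the earlier libraries, that of 180 min was low for AAC1 and PUT4 (each 4.389 log2 RPM, the floor of that library) and SPI1 (5.237 log2 RPM). The 225 min library was low for PHM6 (10.88 log2 RPM), that of 240 min was high for GCN4 (10.1 log2 RPM), and that of 255 min was low for RPT5 (7.97 log2 RPM) and high for TDH1 (12 log2 RPM). The calls of COX12, COX7, MET6 and RPT5 held in 3, 9, 2 and 7 of the 12 single-library fits.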

How the results depend on the processing

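None of the 349 changes that passed the threshold turned its sign under the alternatives that gave it a value. These genes were picked by their call and the alternatives refit the same libraries, so the kept signs are not a separate check. The 349 calls (189 higher, 160 lower) became 215 (117 and 98) without the variance trend and robust step, 599 (337 and 262) when a straight line over 180 to 360 min replaced the windows, and 184 (94 and 90) without the 180 and 195 min libraries, an alternative added after the data were seen. Among genes whose call held without any 1 library, that last fit also ended, among others, the calls of BAT1, SAH1, PGM1, NOG2 and NOP15 (adjusted p = 0.105, 0.0664, 0.0796, 0.0646 and 0.0777). Leaving out 1 library gave 204 to 395 calls (108 to 212 higher, 96 to 183 lower). The other alternatives gave 274 to 430 calls in all. Of those, sample weights gave 274, all 24 no-phosphate samples in 1 fit 298, log2 depth as a covariate 384 and time within each window as a covariate 430. Centring gave 130 higher and 226 lower. The mean share of reads held by ribosomal protein genes was 5.44% (SD 0.918) at 285 to 360 min and 5.51% (SD 1.35) at 180 to 255 min. What made the counts differ was not tested, and the fits that leave libraries out also have fewer samples. No paired analysis was possible because the labels hold no replicate numbers and each time has 1 library. Depth limits low genes: the median SE was 0.21 below 6 log2 units and 0.14 at or above.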

Other observations

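Of the 349 genes that changed, 200 are on none of the 49 lists. Families that hold some of these genes were written out after their values were seen, so their counts are descriptions. MCD1, given again below, is on the list of DNA replication and G1/S and is not one of the 200. Over all genes tested 4.15% rose and 3.51% fell. Of 6 genes tested of cohesin, the ring that holds sister chromatids together, and its loaders, 4 fell: MCD1, SMC1, IRR1 and PDS5, with changes of -0.97, -0.77, -0.75 and -0.64 on the log2 scale. Of 5 genes tested of the GID ubiquitin ligase, which degrades gluconeogenic enzymes, 4 rose: VID24, GID8, GID7 and UBC8, by 0.65, 0.52, 0.49 and 0.49. The calls of SMC1, IRR1, VID24, GID7 and UBC8 were lost in at least 1 fit that left out a library.

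Genes of the secretory route fell in small numbers, and over all genes tested 3.51% fell. Of 18 genes tested of entry into the endoplasmic reticulum 3 fell, among them SEC61, the channel itself (change -0.67, adjusted p = 0.0019), and SBH1, a channel subunit (change -0.67, adjusted p = 0.00363). Of 17 genes tested of the p24 proteins and the COPII coat 5 fell, with EMP24 at -0.61 and ERP2 at -0.76. Of 26 genes tested of protein glycosylation and GPI anchors 7 fell, among them SEC53, phosphomannomutase, at -0.64, and VRG4, the GDP-mannose transporter of the Golgi, at -0.64. None of the genes of these 3 families rose. Of the 15 falls in them 6 held in each fit that left out 1 library, those of SEC61, SBH1, EMP24, ERP2, SEC53 and VRG4.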
